A study of Homo sapiens with 54 samples.

Results

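The regions bound by POLR3G and by POLR3GL were compared in T47D cells treated with vehicle. T47D is an established human breast cancer line of luminal type that expresses the estrogen and progesterone receptors. The members were all rows of the vehicle POLR3G list and of the vehicle POLR3GL list on chromosomes 1 to 22 and X. There were 58423 POLR3G regions and 1104 POLR3GL regions, 59527 in all, of 159830 regions in the 8 vehicle lists and 518471 in the 16 lists of the series. A region was shared when it overlapped a region of the other paralog by at least 1 bp, and it was otherwise specific to its paralog.

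The study profiled these cells by chromatin immunoprecipitation and sequencing (ChIP-seq) after 1 h with ethanol vehicle or with the synthetic progestin R5020. Antibodies recognised the polymerase subunits POLR3A, POLR3C, POLR3G and POLR3GL, the initiation factor Brf1, the repressor Maf1, the progesterone receptor (PR) and acetylated lysine 27 of histone H3 (H3K27Ac), a mark of active promoters and enhancers. Each antibody and treatment had 3 libraries and 1 deposited peak list. Both paralogs were profiled in unmodified cells of the same line, with no knockdown or knockout of either, so the specificity of the antibodies could not be checked from the lists.

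RNA polymerase III transcribes tRNA genes, 5S ribosomal RNA genes and a set of short noncoding RNAs. POLR3C, POLR3F and either POLR3G or POLR3GL form a detachable trimer that helps to open the promoter, so a polymerase carries one paralog or the other. POLR3GL is found in most tissues, while POLR3G is known from pluripotent and transformed cells. Promoters of polymerase III genes in use usually lie in acetylated chromatin, which is why the acetylation state of each class of region is given.

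The H3K27Ac list was checked at markers of cell type. All 9 luminal markers checked (ESR1, PGR, GATA3, FOXA1, TRPS1, KRT8, KRT18, KRT19 and XBP1) had an acetylated region within 1 kb of a gene end. Of the 3 basal markers only TP63 had one, and KRT5 and KRT14 had none. PTPRC, a blood cell marker, and PDGFRA, a fibroblast marker, had none either, while CD3E and COL1A1 did. Over all protein-coding genes, 75.3% had an acetylated region over the gene or within 1 kb, a wider measure. The marker counts are a description and do not by themselves establish the cell type.

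The lists differed in length and in the range of their values. POLR3G regions covered 35.3 Mb and had a median width of 376 bp, against 0.448 Mb and 303 bp for POLR3GL. The fold enrichment over background that the authors deposited for each region reached 14.2 for POLR3G and 4.73 for POLR3GL, and the -log10 q-value reached 96.3 and 13.7. Of the POLR3G regions 13618 had a -log10 q of at least 5, and of the POLR3GL regions 160. Each list was made from its own libraries, and peak lists hold no read counts, so the depth behind each list is unknown. A difference in length between the lists can follow from depth or antibody as well as from binding, and these cannot be told apart. Folds were therefore compared only within a list. Ranges in parentheses are 95% intervals (Wilson for a share, Newcombe for a difference). They cover only counting error over regions, and neighbouring regions are not independent. For a count of 0, the share said to be allowed is 3 divided by the number counted. Wilson upper limits are higher, at 0.347% for 0 of 1104 regions and 0.902% for 0 of 422 tRNA genes. With 1 list per antibody there was no replicate error and no p-value.

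Promoters that carried a region show the sequence context of each class. RefSeq windows were available for 34961 transcription starts of 27195 genes (build GRCh38.p14), and the 250 bases before each start were used. A POLR3G region covered 10400 windows (29.7%), of which 94.7% were also acetylated. A POLR3GL region covered 19 windows (0.0544%) of 17 genes. Of these 19, POLR3G covered 16 and H3K27Ac covered 16. The following windows are those of the 4 genes with the highest POLR3GL -log10 q among windows of both paralogs (TNS2, MYLK-AS1, PPP2R5C, WBP1L), of 2 genes with POLR3GL and no POLR3G (LOC124901314, SLMAP), and of SF3B6, whose window held the highest POLR3G -log10 q. They are printed 5′ to 3′ on the strand of the gene. Capitals mark 1 of 6 short motifs on either strand, whose letters are given after the sequences.
TNS2 (chr12:53046741-53046990, plus strand): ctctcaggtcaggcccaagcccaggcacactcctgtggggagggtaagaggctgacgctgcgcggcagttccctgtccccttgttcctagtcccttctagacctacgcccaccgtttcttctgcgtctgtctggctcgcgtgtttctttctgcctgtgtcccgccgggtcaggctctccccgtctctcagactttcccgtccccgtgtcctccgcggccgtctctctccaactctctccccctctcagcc
MYLK-AS1 (chr3:123585263-123585512, plus strand): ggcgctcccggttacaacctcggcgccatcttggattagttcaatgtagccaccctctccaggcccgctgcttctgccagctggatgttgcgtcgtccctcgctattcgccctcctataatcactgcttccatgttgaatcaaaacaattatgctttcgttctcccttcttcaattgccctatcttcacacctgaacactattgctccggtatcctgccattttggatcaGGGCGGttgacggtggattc
PPP2R5C (chr14:101760323-101760572, plus strand): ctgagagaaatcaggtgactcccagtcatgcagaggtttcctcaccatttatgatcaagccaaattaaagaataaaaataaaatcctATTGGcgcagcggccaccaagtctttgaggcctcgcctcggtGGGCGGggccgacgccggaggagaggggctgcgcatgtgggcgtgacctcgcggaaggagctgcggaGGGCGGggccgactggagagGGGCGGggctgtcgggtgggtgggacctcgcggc
WBP1L (chr10:102743698-102743947, plus strand): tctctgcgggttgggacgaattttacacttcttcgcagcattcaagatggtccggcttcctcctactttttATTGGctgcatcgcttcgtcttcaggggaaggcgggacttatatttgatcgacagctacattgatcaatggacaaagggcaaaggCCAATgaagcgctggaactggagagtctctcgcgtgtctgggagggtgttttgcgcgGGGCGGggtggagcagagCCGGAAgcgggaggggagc
LOC124901314 (chr6:38122877-38123126, plus strand): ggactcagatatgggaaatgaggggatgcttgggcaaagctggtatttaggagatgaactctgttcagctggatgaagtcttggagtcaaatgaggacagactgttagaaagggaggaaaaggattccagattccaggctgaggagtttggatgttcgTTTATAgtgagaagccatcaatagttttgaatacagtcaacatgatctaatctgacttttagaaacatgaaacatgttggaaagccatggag
SLMAP (chr3:57756059-57756308, plus strand): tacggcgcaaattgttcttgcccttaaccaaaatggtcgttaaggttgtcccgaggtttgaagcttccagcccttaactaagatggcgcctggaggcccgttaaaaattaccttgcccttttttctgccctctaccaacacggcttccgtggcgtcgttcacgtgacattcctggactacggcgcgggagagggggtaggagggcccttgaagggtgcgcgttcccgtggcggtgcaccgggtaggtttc
SF3B6 (chr2:24076327-24076576, minus strand): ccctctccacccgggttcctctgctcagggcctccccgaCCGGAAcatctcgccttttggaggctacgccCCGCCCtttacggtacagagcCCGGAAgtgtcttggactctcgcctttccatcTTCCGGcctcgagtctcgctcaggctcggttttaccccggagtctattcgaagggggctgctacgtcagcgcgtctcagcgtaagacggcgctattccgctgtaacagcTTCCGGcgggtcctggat

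TNS2 encodes a tensin of focal adhesions, PPP2R5C a regulatory subunit of protein phosphatase 2A, WBP1L a WW-domain binding protein, SLMAP a membrane-anchored adaptor protein and SF3B6 a subunit of the spliceosome. The POLR3GL regions over the 4 shared windows had folds of 3.49 (TNS2), 3.72 (MYLK-AS1), 3.43 (PPP2R5C) and 2.99 (WBP1L). The POLR3G regions there had folds of 5.65, 3.94, 5.04 and 5.57 in the same order, and widths of 10108, 892, 1115 and 2010 bp. H3K27Ac was present in the windows of TNS2, MYLK-AS1, WBP1L, SLMAP and SF3B6, and no H3K27Ac region overlapped those of PPP2R5C and LOC124901314. The SLMAP window held POLR3GL at a fold of 3.16 and H3K27Ac at 10.3 without POLR3G. The LOC124901314 window had a TATA box on the opposite strand and the lowest GC content of those printed, 42.0%, against 63.6% for TNS2 and 62.4% for SF3B6.

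Motif content set POLR3G promoters apart from the promoter average, and the 19 POLR3GL windows were too few to place. A GC box, searched as GGGCGG, was found in 71.0% of the 10384 windows with POLR3G alone (70.1 to 71.9), in 58.9% of acetylated windows without POLR3G, and in 42.7% of all windows. The core of the ETS factor motif, searched as CCGGAA, was in 26.8% (26.0 to 27.7), 19.0% and 14.5% in the same order. The TATA box, searched as TATAAA, went the other way, at 4.18% (3.81 to 4.58), 5.40% and 10.7%. Mean GC content was 66.0%, 63.5% and 57.2%. Of the 19 windows with POLR3GL, 12 held a GC box (63.2%, 41.0 to 80.8), 9 a CCAAT box (47.4%, 27.3 to 68.3), 4 an ETS core and 1 a TATA box. Those intervals include the shares of windows with POLR3G alone, which for CCAAT was 34.4%. GC content, acetylation and POLR3G moved together over these windows, and the part of each was not tested. The forkhead motif was searched as TGTTTAC. The GATA motif was searched as AGATAA. Neither was found in the 19 windows, and they were in 2.98% and 9.18% of all windows. All motifs were searched on both strands, and none of the 6 contains another. A match to a motif describes the letters in the window and not a bound site.

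The question of the comparison was how far the paralogs occupied the same places. Of the 1104 POLR3GL regions, 286 overlapped a POLR3G region (25.9%, 23.4 to 28.6) and 818 did not. Of the 58423 POLR3G regions, 142 overlapped a POLR3GL region (0.243%, 0.206 to 0.286) and 58281 did not. The overlap was 144.5 kb, which was 32.2% of the bases in POLR3GL regions and 0.409% of those in POLR3G regions. The difference between 286 and 142 came from broad POLR3G domains: 26 shared POLR3G regions held 2 or more POLR3GL regions, and 116 held 1. The 3 widest shared POLR3G regions, of 67.6, 45.3 and 34.9 kb, all lay over TRPS1 and together held 120 POLR3GL regions.

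Overlap depended on how it was counted. With at least 50% of both regions in common, 32 of 1104 POLR3GL regions were shared (2.90%), and among regions of both lists with a -log10 q of at least 5, 68 of 160 were (42.5%). Of the 1104 POLR3G regions with the highest -log10 q, 17 overlapped POLR3GL (1.54%, 0.964 to 2.45). In 4 groups of 276 POLR3GL regions from the highest to the lowest -log10 q, 46.4%, 22.5%, 21.0% and 13.8% of regions overlapped POLR3G. In 10 equal groups of POLR3G regions by -log10 q, 0.736% of the first and 0.0856% of the last overlapped POLR3GL. By these groups the shared part was thus highest in the first group of each list. With a -log10 q of at least 5 in both lists, however, 16 of 13618 POLR3G regions were shared (0.117%). Median width also fell, from 1270 to 301 bp over the POLR3G groups and from 425 to 264 bp over the POLR3GL groups. The part of width was not tested.

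Acetylation separated the classes. H3K27Ac overlapped 53.6% of POLR3G-specific regions (31236 of 58281, 53.2 to 54.0), 31.8% of shared POLR3GL regions (91 of 286, 26.7 to 37.4) and 5.50% of POLR3GL-specific regions (45 of 818, 4.14 to 7.28). Over each whole list the background share was 53.6% for POLR3G and 12.3% for POLR3GL. POLR3G-specific regions exceeded POLR3GL-specific ones by 48.1 percentage points (46.3 to 49.5), and shared POLR3GL regions exceeded POLR3GL-specific ones by 26.3 points (20.9 to 32.1). Seen from the POLR3G side, 51.4% of shared regions overlapped H3K27Ac (43.3 to 59.5), with a difference from POLR3G-specific regions of -2.19 points (-10.3 to 5.90). At the summit the shares were lower in every class, at 43.6% for POLR3G-specific, 31.7% for shared POLR3G, 21.7% for shared POLR3GL and 2.81% for POLR3GL-specific regions. At the summit the shared minus POLR3G-specific difference was -11.9 points (-19.0 to -3.81), although shared POLR3G regions were the wider, with a median of 684 bp against 375 bp.

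POLR3GL-specific regions were also farther from acetylated chromatin. Their median distance to the nearest H3K27Ac region was 16.8 kb, against 0.905 kb for shared POLR3GL regions and 0 for POLR3G-specific ones. Within 10 kb of an H3K27Ac region lay 37.7% of POLR3GL-specific regions (34.4 to 41.0), 88.5% of shared POLR3GL regions and 94.9% of POLR3G-specific regions. The plot of cumulative distance shows the separation of the classes. The acetylated regions themselves differed as well. The 23066 H3K27Ac regions that overlapped a POLR3G-specific region had a median width of 1283 bp. Their median fold was at the 81.0th percentile of the H3K27Ac list. The 46 that overlapped a POLR3GL-specific region had 486.5 bp and the 18.0th percentile. An acetylated region with regions of both kinds was counted in both sets.

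**Figure D1:**
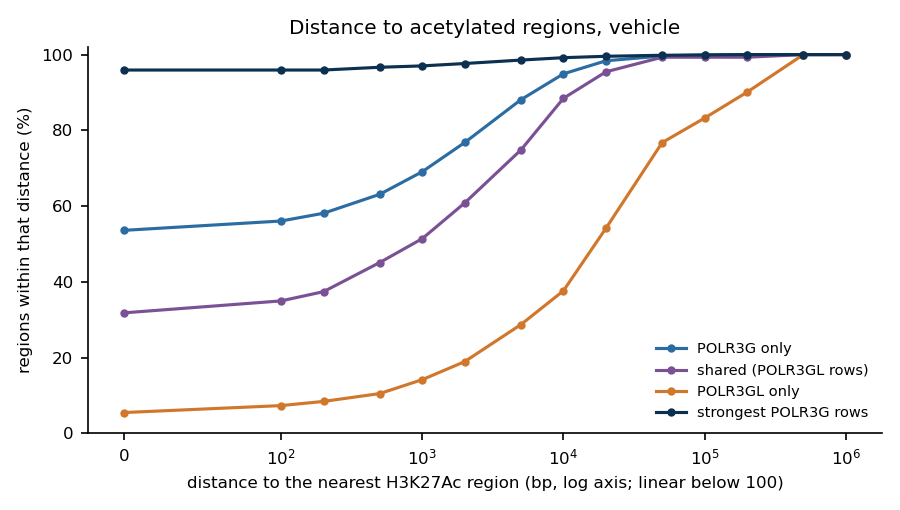
Share of regions (y axis, percent) within a given distance (x axis, bp, log scale above 100 bp) of the nearest vehicle H3K27Ac region, for POLR3G-specific, shared POLR3GL and POLR3GL-specific regions and the 1104 strongest POLR3G regions. At 10 kb the POLR3GL-specific curve stands at 37.7% and the shared curve at 88.5%.

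Width and rank differed between the classes and could bear on the shares of overlap. The median width was 287.5 bp for POLR3GL-specific, 383 bp for shared POLR3GL, 375 bp for POLR3G-specific and 684 bp for shared POLR3G regions. The median fold of shared POLR3GL regions was 2.96 and that of POLR3GL-specific regions 2.80, at the 64.7th and 45.7th percentiles of their list. The part of width and rank in the acetylation difference was not tested beyond the alternatives in the closing section.

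Relative to genes, the classes occupied different settings. The ends of protein-coding genes lay within 1 kb of 27.0% of POLR3G-specific regions (26.6 to 27.3), 14.3% of shared POLR3GL regions (10.7 to 18.9) and 3.30% of POLR3GL-specific regions (2.28 to 4.76). POLR3GL-specific regions lay mostly between protein-coding genes (60.5%, 57.1 to 63.8), and shared POLR3GL regions mostly inside one, away from its ends (67.5%, 61.9 to 72.6). For POLR3G-specific regions these shares were 26.5% between and 46.5% inside. The strongest 1104 POLR3G regions lay most often at a gene end, at 67.7% (64.8 to 70.4), and 95.9% were acetylated (94.6 to 96.9). Either end of a gene counted, so these are not promoter shares. Their median width was 2174 bp, and the part of width was not tested.

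**Figure D2:**
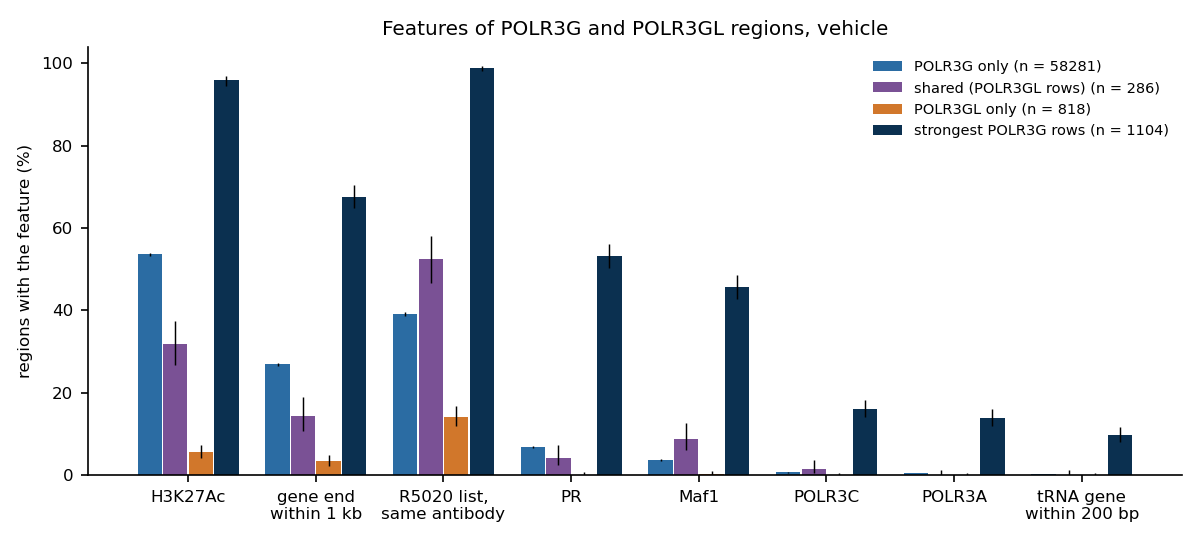
Share of regions (y axis, percent) with each feature for POLR3G-specific, shared POLR3GL, POLR3GL-specific and the 1104 strongest POLR3G regions, with 95% Wilson intervals as error bars. H3K27Ac falls from 53.6% to 31.8% to 5.50% over the first 3 classes, and POLR3A and tRNA genes are at 0 in both POLR3GL classes.

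POLR3A and Brf1 were found at a small share of POLR3G regions and at no POLR3GL region, and POLR3C was rare in every class. POLR3A, the largest subunit and part of the catalytic core, overlapped 279 POLR3G-specific regions (0.479%) and none of the 1104 POLR3GL regions, a count that allows a share of up to 0.272%. Brf1, which recruits the polymerase to tRNA promoters, overlapped 233 POLR3G-specific regions and no POLR3GL region. POLR3C is the partner of both paralogs in the trimer. It overlapped 387 POLR3G-specific regions (0.664%, 0.601 to 0.733) and 4 of 286 shared POLR3GL regions (1.40%, 0.545 to 3.54). None of 818 POLR3GL-specific regions overlapped POLR3C. Of the 142 shared POLR3G regions, 2.82% did (1.10 to 7.02). The share was thus higher at shared than at POLR3G-specific regions, though from 4 regions. POLR3A-occupied sites are few beside 58423 regions, so the small shares were read from the other side too. POLR3G was present at 42.3% of 688 POLR3A regions (38.7 to 46.0), 62.6% of 666 POLR3C regions (58.9 to 66.2) and 63.8% of 370 Brf1 regions (58.8 to 68.5). POLR3GL was present at 0, 3 and 0 of them.

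Maf1 and PR were rare at POLR3GL-specific regions. Maf1, the repressor of polymerase III, overlapped 3.68% of POLR3G-specific regions (2142), 8.74% of shared POLR3GL regions (25, 5.99 to 12.6) and 0.367% of POLR3GL-specific regions (3). PR overlapped 6.84%, 4.20% (12 regions) and 0.122% (1 region) in the same order. The shared POLR3GL regions with Maf1 or PR lay mostly outside a 2-Mb interval of chromosome 8 around TRPS1. Inside it Maf1 was at 2 and PR at 0 of 161 shared regions. Outside it they were at 18.4% (12.6 to 26.1) and 9.60% (5.58 to 16.0) of 125. The POLR3G-specific share lay below the interval for Maf1 and within the interval for PR. The order of the POLR3G-specific and shared POLR3GL shares of Maf1 turned under other settings. The shares were 8.04% and 2.94% with a -log10 q of at least 5, and 45.5% and 6.85% with equal numbers of regions. They were 0.575% and 0 of 32 with at least 50% of both regions in common, a rule applied to the overlap with Maf1 too. Of the 142 shared POLR3G regions, 16.9% held Maf1 and 12.0% held PR, which exceeded the POLR3G-specific shares by 13.2 points (7.95 to 20.2) and 5.13 points (0.763 to 11.5). Shared POLR3G regions were wider, as given above, and the part of width was not tested.

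The strength of a POLR3G region went with every one of these features. In the first of 10 equal groups by -log10 q, 87.2% of 5842 regions were acetylated, 58.3% lay at a gene end, 31.4% overlapped PR, 22.2% Maf1 and 3.44% POLR3A. In the last group the shares were 39.7%, 15.6%, 1.99%, 0.394% and 0.0856%. The first group held 201 of the POLR3G regions with POLR3A, against 5 in the last. Median width fell from 1270 to 301 bp over the same groups, and the part of width was not tested.

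**Figure D3:**
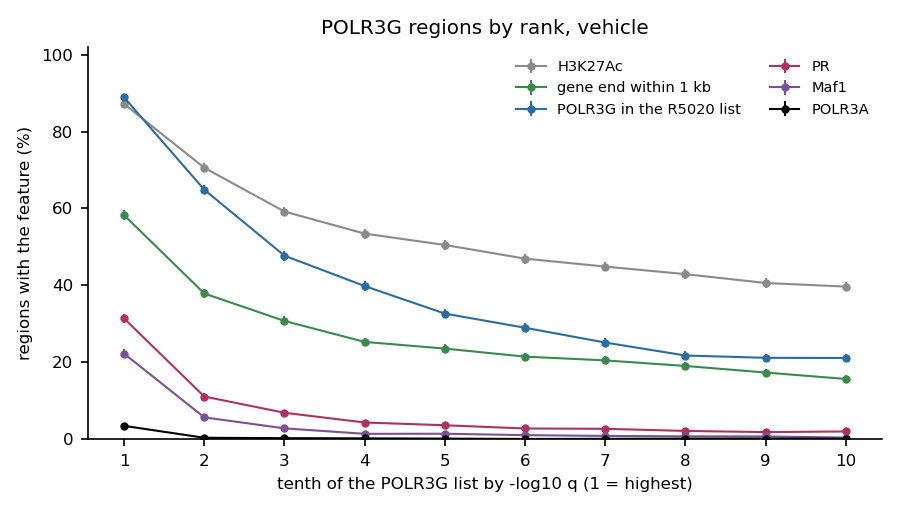
Share of POLR3G regions (y axis, percent, with 95% Wilson intervals) with each feature in 10 equal groups of the list (x axis, 1 = highest -log10 q). H3K27Ac goes from 87.2% in the first group to 39.7% in the last, and POLR3A from 3.44% to 0.0856%.

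tRNA genes, the main templates of polymerase III, had POLR3G and no POLR3GL. A POLR3G region lay within 200 bp of 216 of 422 tRNA genes (51.2%, 46.4 to 55.9), and a POLR3GL region of 0 of 422, which allows a share of up to 0.711%. At the promoter windows, which are narrower, the shares were 29.7% for POLR3G and 0.0544% for POLR3GL. The 0 of 422 is thus not distinguishable from that POLR3GL background. The tRNA gene nearest to a POLR3GL region, TRN-GTT2-1, was 7309 bp away. POLR3G at tRNA genes followed POLR3A: 215 of 360 tRNA genes with POLR3A had POLR3G (59.7%), and 1 of 62 without POLR3A. The deposited folds of the POLR3A regions had a median of 47.1 at tRNA genes with POLR3G and 15.8 at those without.

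Among tRNA genes with POLR3A, acetylation split those with and without POLR3G. POLR3G was found at 161 of 170 with H3K27Ac (94.7%, 90.2 to 97.2) and at 54 of 190 without (28.4%, 22.5 to 35.2), a difference of 66.3 points (58.2 to 72.7). POLR3C divided them in a similar way, with POLR3G at 98 of 99 tRNA genes that had POLR3C and at 44.8% of the 261 that had POLR3A without it. Brf1 did too, with POLR3G at 214 of 300 tRNA genes with POLR3A and Brf1 and 1 of 60 without Brf1. Neighbouring tRNA genes can share 1 region, so these genes are not independent. By amino acid, POLR3G was found at 7 of 8 initiator methionine, 6 of 7 tryptophan, 20 of 26 arginine and 14 of 20 threonine genes, and at 4 of 29 cysteine genes (13.8%, 5.50 to 30.6). The cysteine genes had POLR3A at 21 of 29 and H3K27Ac at 5.

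Other polymerase III genes also had POLR3G and no POLR3GL. Of 21 listed, which include the selenocysteine tRNA gene TRU-TCA1-1, POLR3A was found within 200 bp at 20, H3K27Ac at 17, POLR3G at 18 and POLR3GL at 0, which allows a share of up to 14.3%. With POLR3GL at 0.0544% of promoter windows, 0 of 21 is not distinguishable from that background either. Brf1 was at 7 and POLR3C at 4 of the 21. Unlike at tRNA genes, POLR3G was found at 12 of the 13 with POLR3A and no Brf1, among them RMRP, RN7SK and the listed U6 and Y RNA genes. VTRNA1-1 and VTRNA1-3 had POLR3G and no H3K27Ac. POLR3G folds ran from 2.54 at RNU6-7, a U6 spliceosomal RNA gene, to 10.3 at VTRNA1-2, a vault RNA gene. RN7SK, whose RNA holds the elongation factor P-TEFb, had 9.96, and RN7SL1, the RNA of the signal recognition particle, had 8.77. RMRP, the RNA of a ribonuclease that processes ribosomal RNA, had 4.39, and the Y RNA genes RNY1, RNY3, RNY4 and RNY5 had 4.66, 4.97, 3.19 and 4.26. The 3 genes without POLR3G were BCYRN1, RPPH1 and VTRNA2-1. BCYRN1 had POLR3A at a fold of 35.9 and no H3K27Ac, RPPH1, the RNA of ribonuclease P, had both POLR3A and H3K27Ac, and VTRNA2-1 had neither.

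The strongest POLR3G-specific regions were tRNA genes. Among the 10 with the highest -log10 q, 9 held a tRNA gene, all 10 were acetylated, 9 overlapped POLR3A and Brf1 and 10 POLR3C, and folds ran from 11.6 to 14.2. They included TRS-TGA1-1 (chromosome 10, 67763599 to 67765818, fold 12.1), TRD-GTC1-1 with TRW-CCA4-1 (chromosome 12, 98502547 to 98505209, fold 13.8) and the initiator methionine gene TRX-CAT1-1 beside ILF2 (chromosome 1, 153669443 to 153672476, fold 11.9). The 1 region without a tRNA gene spanned 8735 bp over SF3B6, FAM228B and TP53I3 (chromosome 2, 24073991 to 24082725, fold 14.2), with POLR3C, Maf1 and PR but no POLR3A or Brf1. All 10 were found again with POLR3G in the R5020 list.

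The strongest shared regions had other neighbours. Of the 10 POLR3GL regions with the highest -log10 q that overlapped POLR3G, 7 lay in or beside TRPS1, the gene of a GATA-type repressor of transcription that marks breast epithelium. Another 2 lay inside TMEM242, the gene of a mitochondrial membrane protein, and 1 in the noncoding gene LOC124902544. The first at TRPS1 (chromosome 8, 115403232 to 115406526) had the highest POLR3GL fold, 4.73, and its POLR3G partner of 8510 bp had 6.53. The first at TMEM242 (chromosome 6, 157310490 to 157310959) had a POLR3GL fold of 2.34, H3K27Ac and POLR3C. Of the 10, 2 were acetylated, none held POLR3A, and 8 were found again with POLR3GL in the R5020 list.

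Ranked instead by the POLR3G row, shared regions were mostly acetylated, 9 of 10. Outside TRPS1 they were a region near the end of chromosome 1 (248945398 to 248946332, fold 5.64), MALAT1 (chromosome 11, 65495375 to 65509076, fold 6.84), RPS18 with VPS52 (chromosome 6, 33270647 to 33282720, fold 7.45), WBP1L with SFXN2, EIF6 with MMP24, and TNS2. MALAT1 is an abundant nuclear noncoding RNA, RPS18 a protein of the small ribosomal subunit and EIF6 a factor that keeps ribosomal subunits apart. The MALAT1 region of 13.7 kb held 8 POLR3GL regions, all acetylated, with folds of 2.52 to 3.33. It also overlapped POLR3C, Maf1 and PR.

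POLR3GL-specific regions of the highest -log10 q lay at TMEM242 (chromosome 6, 157314139 to 157314336, fold 2.79), in JAZF1, a zinc finger cofactor of transcription (chromosome 7, 27836983 to 27837201, fold 3.89), and in PHACTR3, an actin and phosphatase regulator (chromosome 20, 59830543 to 59830828, fold 4.16). The other 7 of the 10 lay within 2 Mb of chromosome 8 around TRPS1 and EIF3H. One of the 10 was acetylated, 2 were found again with R5020, and none overlapped POLR3A, POLR3C, Brf1, Maf1 or PR.

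By chromosome, the lists had little in common. Chromosome 8 held 680 of 1104 POLR3GL regions (61.6%, 58.7 to 64.4), against 2.88% of POLR3G regions. POLR3G regions were most frequent on chromosomes 17 (11.4%) and 19 (10.6%), where POLR3GL had 6 regions and 1 region. POLR3GL had none on chromosomes 16, 18 and 22, each count allowing a share of up to 0.272%. POLR3G had 4562 regions on chromosome 16 (7.81%), 147 on chromosome 18 (0.252%) and 1475 on chromosome 22 (2.525%). The POLR3G share of chromosome 18 lay below that limit, so the 0 there does not separate the lists.

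**Figure D4:**
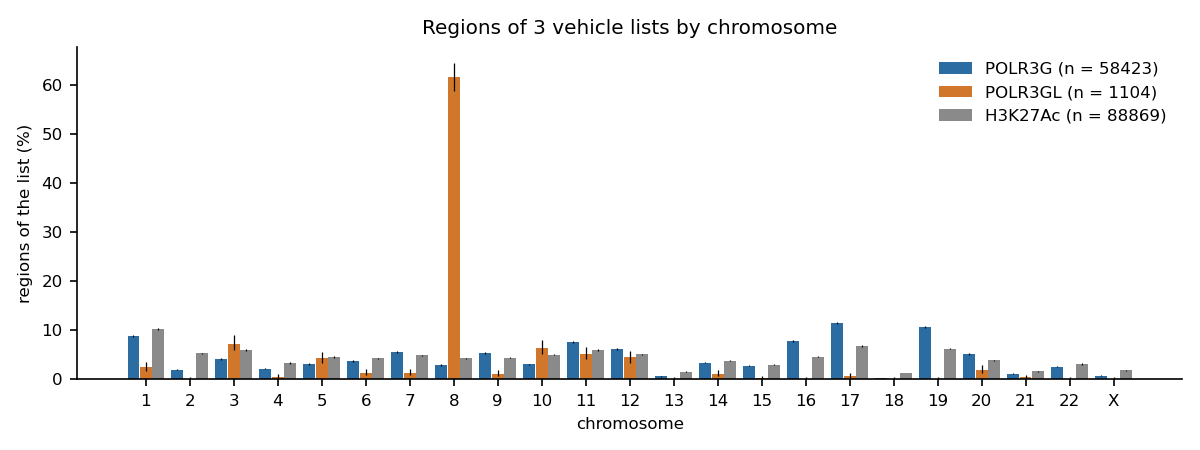
Share of each vehicle list (y axis, percent, with 95% Wilson intervals) on each chromosome (x axis) for POLR3G, POLR3GL and H3K27Ac. POLR3GL stands at 61.6% on chromosome 8, and POLR3G is highest on chromosome 17 at 11.4%.

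Within chromosome 8, 607 POLR3GL regions (55.0% of the list, 52.0 to 57.9) lay in the 2 Mb from 115000001 to 117000000, which hold TRPS1 and EIF3H. The same interval held 86 POLR3G regions (0.147%), 195 H3K27Ac regions, 14 Maf1 and 29 PR regions, and no POLR3A, POLR3C or Brf1 region. In 1-Mb bins across the genome, 189 of 2673 bins held a POLR3GL region, 105 of them just 1, and the 6 fullest held 709 regions (64.2%). Those 6 included the 2 bins of this interval, with 375 regions (TRPS1) and 232 (EIF3H). The others held SATB1 (chromosome 3, 33 regions), PGR (chromosome 11, 28), GATA3 (chromosome 10, 21) and MED13L (chromosome 12, 20). Each bin is named by a gene in it, and that gene can hold few of the regions: EIF3H itself held 18 and GATA3 held 3. The TRPS1 bin ranked 36th in the genome by bases under H3K27Ac and 27th by bases under POLR3G, and the EIF3H bin ranked 433rd and 1008th. DNA copy number over the interval was not analysed here.

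The classes were therefore compared with and without this interval. Outside it, 125 of 497 POLR3GL regions were shared (25.2%, 21.5 to 29.1), and inside it 161 of 607 (26.5%, 23.2 to 30.2). Outside it, 53.6% of shared POLR3GL regions were acetylated (44.9 to 62.1) and 6.18% of POLR3GL-specific regions (4.16 to 9.11), a difference of 47.4 points (38.2 to 56.2). Inside it, 14.9% of shared POLR3GL regions were acetylated (10.2 to 21.2). The gap between shared and POLR3GL-specific regions was thus as large or larger without this interval, and the acetylated share of shared regions there, 53.6%, equalled that of POLR3G-specific regions. The same held at gene ends, at 31.2% for shared and 5.91% for POLR3GL-specific regions outside the interval.

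Joined into loci where neighbours lay at most 50 kb apart, a choice made after the data were seen, the POLR3GL regions formed 248 loci. Of these 173 were single regions, and 21 loci of 5 or more held 795 regions. POLR3G overlapped 61.9% of the 21 loci of 5 or more (40.9 to 79.3), 38.9% of the 54 loci of 2 to 4 and 23.7% of the single regions (18.0 to 30.6). H3K27Ac overlapped 71.4%, 37.0% and 16.8% in the same order. Larger loci cover more bases and have more chances to overlap.

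The 2 largest loci both lay on chromosome 8, with a locus of 11 regions between them, and differed. The locus from 114966782 to 115760120, over TRPS1 and its flank, held 377 POLR3GL regions, of which 161 were shared and 36 acetylated. The locus from 116139926 to 117093257, over EIF3H, UTP23, RAD21, AARD and SLC30A8, held 226 regions, of which none was shared and 10 were acetylated. EIF3H is a translation initiation factor subunit and RAD21 a subunit of cohesin. The first locus held 62 POLR3G and 59 H3K27Ac regions, and the second 4 and 53.

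Over genes, POLR3G was common and POLR3GL rare. Of 19974 protein-coding genes, 10711 had a POLR3G region over the gene or within 1 kb (53.6%), 183 had POLR3GL (0.916%), 152 had both (0.761%) and 31 had POLR3GL without POLR3G (0.155%). H3K27Ac was at 75.3% of all protein-coding genes, at 97.9% of those with POLR3G and at 94.0% of those with POLR3GL. Of the 183 genes, 132 had 1 POLR3GL region and 14 had 5 or more, 7 of these on chromosome 8. Genes with POLR3GL were long, with a median span of 87.8 kb against 24.2 kb for all, and a long gene has more chances to hold a region.

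TRPS1 held the most POLR3GL regions of any protein-coding gene, 193 over its span of 260.5 kb, 146 of them shared and 36 acetylated. POLR3G covered 69.3% of the gene, which ranked it second of all protein-coding genes by POLR3G bases, and POLR3GL covered 48.6%. H3K27Ac covered 16.9%, with its broadest block at the higher-coordinate end of the gene. PGR, the gene of the progesterone receptor, was the fourth by POLR3G bases, with POLR3G over 59.1% and H3K27Ac over 43.4% of its span. It held 20 POLR3GL regions, of which 19 were shared and 11 acetylated.

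**Figure D5:**
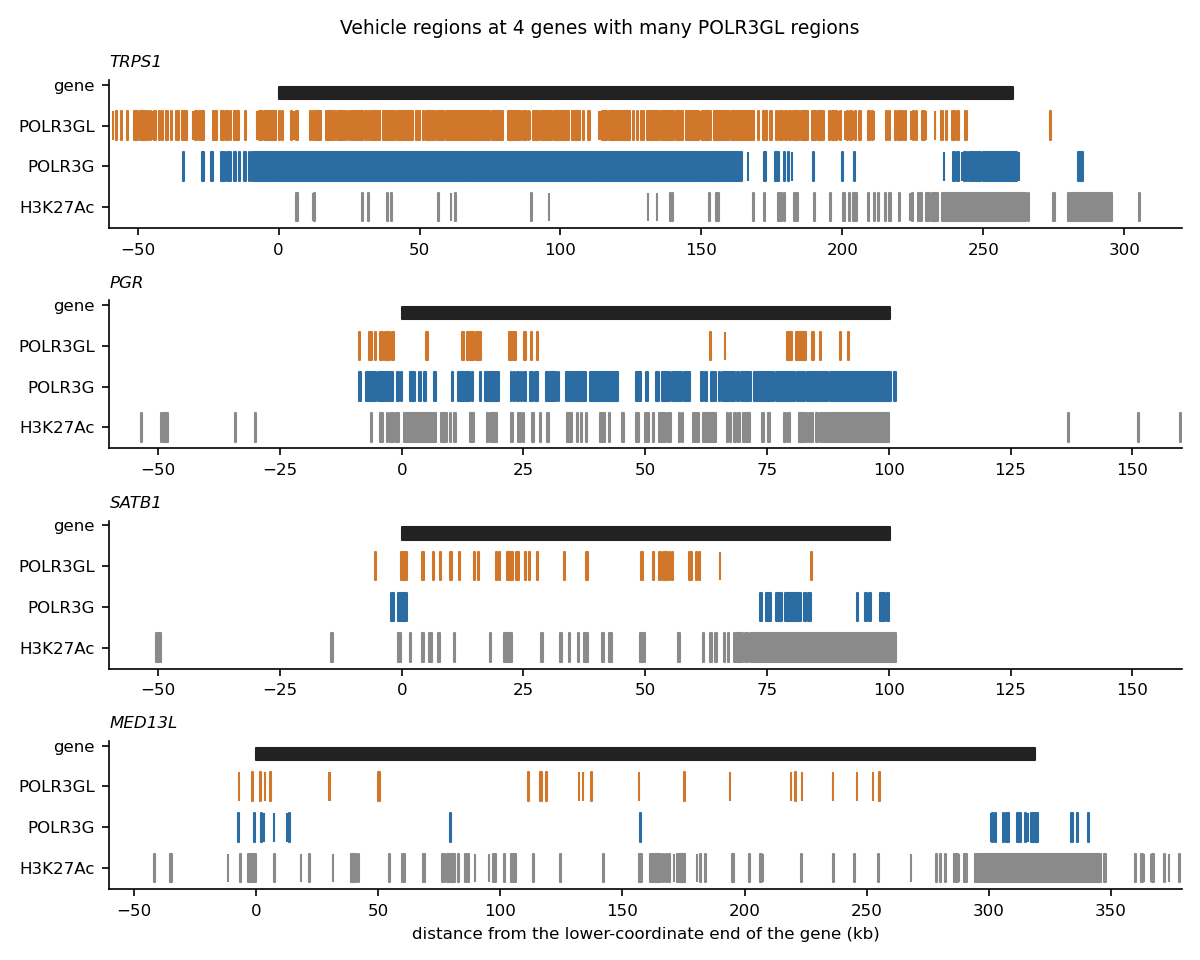
Vehicle regions of H3K27Ac, POLR3G and POLR3GL (bars, 1 row each) along TRPS1, PGR, SATB1 and MED13L (black bar) and 60 kb on either side, by distance from the lower-coordinate end of the gene (x axis, kb). POLR3G spreads over 69.3% of TRPS1 and 59.1% of PGR, while in SATB1 and MED13L it covers 10.0% and 2.51% and most POLR3GL regions lie apart from it.

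In the other 8 of the 10 protein-coding genes with the most POLR3GL regions, POLR3G covered at most 10.0% of the span and few POLR3GL regions were shared. SATB1, a chromatin organiser, held 32 regions, 4 shared and 7 acetylated, with POLR3G over 10.0% and H3K27Ac over 40.7% of its span, and ranked 388th of all protein-coding genes by POLR3G bases. MED13L, a subunit of the Mediator kinase module, held 23, of which 1 was shared and 2 acetylated, with H3K27Ac over 17.6%. EIF3H held 18, none shared or acetylated, and POLR3G covered 0.183% of it. PRLR, the prolactin receptor gene, held 9, none shared or acetylated, although it ranked 9th of all protein-coding genes by bases under H3K27Ac. SLC30A8, a zinc transporter, and EXT1, a heparan sulfate polymerase, held 9 each, C1QTNF3, a secreted protein, 8 and CIBAR1 7. Of these 33 regions 1 was shared, in C1QTNF3. MAP3K12, a kinase gene outside these 10 and named after its values were seen, went the other way, with 5 POLR3GL regions, all shared, and POLR3G over 60.2% of its span.

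The genes of the fixed lists were checked for both paralogs. Of 35 luminal genes, 30 had POLR3G, 34 had H3K27Ac and 5 had POLR3GL, namely PGR, GATA3, TRPS1, GRHL2 and PRLR. Over all protein-coding genes the shares were 53.6%, 75.3% and 0.916%, but the list was chosen with earlier results of these data known, so the count is a description. GATA3, a pioneer transcription factor of luminal cells, held 3 POLR3GL regions, all shared and acetylated, in a gene that POLR3G covered to 95.2% and H3K27Ac to 100%. GRHL2, an epithelial transcription factor, held 2, neither shared. The luminal genes without POLR3GL that had the highest POLR3G -log10 q were ERBB3, KRT8, KRT18, KRT19 and XBP1, with POLR3G folds of 6.32, 5.72, 5.72, 5.99 and 5.46. KRT8 and KRT18 lie next to each other and share a region. ESR1, the estrogen receptor gene, had neither paralog although it held 34 H3K27Ac regions.

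The genes of the polymerase III machinery had POLR3G at 31 of 36, H3K27Ac at 36 and POLR3GL at 0. With POLR3GL at 0.916% of all protein-coding genes, 0 of 36 is not distinguishable from the background, and the backgrounds for POLR3G and H3K27Ac were 53.6% and 75.3%. POLR3E, a subunit gene, stood highest with a POLR3G fold of 11.5 and a -log10 q of 57.1, followed by POLR2H (fold 4.98) and SNAPC4 (5.22), which encode a shared polymerase subunit and a factor for U6-type promoters. The gene of POLR3GL itself had 2 POLR3G regions, with a highest fold of 3.85, and the gene of POLR3G had 2, with 3.88. GTF3A, GTF3C1, GTF3C3, GTF3C6 and SSB had neither paralog. Of 10 genes of basal and other cell types, 4 had POLR3G, 5 had H3K27Ac and none had POLR3GL, against the same backgrounds of 53.6%, 75.3% and 0.916%, so neither paralog's count stood apart. Of the 11 genes listed from chromosome 8 in and around the interval, 8 had POLR3GL, 7 had POLR3G and 11 had H3K27Ac. SLC30A8 and SAMD12 had POLR3GL without POLR3G. LINC00536, a noncoding gene among them, held 58 POLR3GL regions, none shared and 6 acetylated.

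How often a region was found again with the same antibody in the R5020 list gave a check from other libraries. The treatment also differs, and replicate 1 of POLR3G and of POLR3GL in that list is tagged as ethanol although titled R5020, so a region not found again may reflect treatment or calling, which cannot be told apart. POLR3G-specific regions returned in 39.1% of cases (38.7 to 39.5), shared POLR3G regions in 69.0% (61.0 to 76.0), shared POLR3GL regions in 52.4% (46.7 to 58.2) and POLR3GL-specific regions in 14.2% (12.0 to 16.7). The strongest 1104 POLR3G regions returned in 99.0%. Shared POLR3GL regions exceeded POLR3GL-specific ones by 38.3 points (31.9 to 44.4).

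Of the 150 shared POLR3GL regions that returned, 121 lay in the interval of chromosome 8 with TRPS1. In the interval of chromosome 8, 75.2% of shared POLR3GL regions returned (67.9 to 81.2), and elsewhere 23.2% (16.7 to 31.3), while POLR3GL-specific regions elsewhere returned in 8.87% (6.39 to 12.2). In the 4 groups by -log10 q, from the highest, 45.3%, 23.6%, 13.4% and 14.1% returned. In TRPS1 the R5020 list held 166 POLR3GL regions, in PGR 18, in MED13L 10 and in PRLR 19, against 193, 20, 23 and 9 with vehicle. SATB1, with 32 vehicle regions, had 0 in the R5020 list, and GATA3, with 3, had 0. The R5020 POLR3GL list was shorter, with 603 regions. A POLR3GL-specific vehicle region overlapped POLR3G in the R5020 list in 3.18% of cases (2.18 to 4.62), and a shared POLR3GL region in 81.1% (76.2 to 85.2).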

How the data were processed

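The vehicle POLR3G and POLR3GL lists, the other 6 vehicle lists and the R5020 lists of both paralogs were used, each from 3 libraries. Per the submitters' processing notes, cutadapt, Bowtie2, MACS2 and build hg38 were used. Their versions, the control libraries and how the 3 libraries became 1 list are not given in the sources used here. Each list holds, as the authors deposited them, the fold (ratio to background) and the -log10 q-value of every region, the latter at least 1.30 here. Both served only to rank, filter or describe regions within a list.

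Rows on chromosomes 1 to 22 and X were kept. Regions were compared by overlap of at least 1 bp in Python 3.11.15 (numpy 2.4.6, pandas 2.3.3, scipy 1.17.1), after the overlap code was tested on simulated regions. Genes came from the RefSeq table of GRCh38.p14 and promoters from its sequence table, which holds no window of chromosome 8. Lists were matched to groups by their names and the sample titles. Titles were followed where the treatment tags of R5020 replicate 1 of POLR3G and POLR3GL differed. The regions named were the 10 with the highest -log10 q in each class, and the genes named were listed genes with POLR3GL, listed genes highest in POLR3G, and the 10 protein-coding genes with the most POLR3GL regions; the loci, the comparison of promoter windows and the genes of the R5020 list were described after their values were seen. The members and gene lists were chosen with earlier results of these data known. Alternatives were stricter overlap, a -log10 q of at least 5, equal numbers of regions, wider windows and leaving out 2 Mb of chromosome 8.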

Additional observations from a re-analysis of the deposited data

How the results depend on the processing

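With 1 list per antibody, no library could be left out and read depth was unknown. No paired analysis was possible because the lists carry no replicate columns. Over 158 recomputed values, 70 stayed within the 95% interval of the reported value (or, for counts, within 1.5 times) and 88 moved. POLR3GL-specific regions had the lowest share of H3K27Ac, of gene ends and of return in the R5020 list under each alternative run, although with equal numbers of regions the gene-end shares were 6.16% for shared and 6.16% for POLR3GL-specific regions. POLR3A stayed at 0 in both POLR3GL classes and POLR3GL at 0 tRNA genes under each alternative run. The order of POLR3G-specific and shared POLR3GL regions was less stable: for H3K27Ac it turned with 50% overlap, and without the chromosome 8 interval the shares were level (both 53.6%). For gene ends it turned without the chromosome 8 interval, at 27.0% and 31.2%. For return it turned without that interval and with equal numbers. Values below are in the order POLR3G-specific, shared POLR3GL, POLR3GL-specific where 3 are given. The cause of these shifts was not tested beyond what each choice does by construction.

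The 50% and summit rules were applied to the overlaps with H3K27Ac, POLR3A and the R5020 list too, and not to gene ends. With at least 50% of both regions in common, 2.90% of POLR3GL and 0.0548% of POLR3G regions were shared. H3K27Ac was then at 7.69%, 12.5% and 1.40%, and return at 14.1%, 15.6% and 6.44%. Gene ends were at 25.0% of shared and 5.60% of POLR3GL-specific regions, and POLR3A at 0.243% of POLR3G-specific regions. With the summit inside the other region, 22.6% of POLR3GL and 0.125% of POLR3G regions were shared, H3K27Ac was at 43.5%, 22.0% and 3.51%, return at 25.1%, 38.0% and 7.85%, and POLR3A at 0.394%. With a -log10 q of at least 5 in every list, 42.5% of POLR3GL and 0.117% of POLR3G regions were shared, H3K27Ac was at 70.3%, 13.2% and 7.61%, gene ends at 46.3% of POLR3G-specific and 5.88% of shared regions, return at 9.78% of POLR3GL-specific regions, POLR3A at 1.63% of POLR3G-specific regions, and 70.6% of POLR3GL regions lay in the chromosome 8 interval.

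With 1104 regions in each list, 13.2% of POLR3GL and 1.54% of POLR3G regions were shared, H3K27Ac was at 95.9%, 21.9% and 10.9%, gene ends at 67.5%, 6.16% and 6.16%, return at 99.0%, 69.9% and 17.1%, and POLR3A at 14.0% of POLR3G-specific regions. Without the chromosome 8 interval, 0.189% of POLR3G regions were shared, H3K27Ac was at 53.6% of shared regions, gene ends at 31.2% of shared and 5.91% of POLR3GL-specific regions, and return at 23.2% and 8.87%. With H3K27Ac regions of a -log10 q of at least 5 alone, the shares were 46.5%, 22.0% and 2.93%. Within 5 kb of a gene end lay 57.0%, 28.0% and 14.1%. With regions less than 1 kb apart joined, 39.6% of POLR3GL regions lay in the chromosome 8 interval. POLR3GL regions at most 50 kb apart were also joined, after the data were seen. Of the joined loci, 30.2% overlapped POLR3G and 16.9% were found in the R5020 list. Before joining, 24.1% of all 1104 regions were found there. The share was 4.05% for the 173 loci of 1 region, 35.2% for loci of 2 to 4 and 76.2% for loci of 5 or more.

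Added after the data were seen as well, POLR3G at tRNA genes with POLR3A and no H3K27Ac was 44.6% by direct overlap, 19.1% with a -log10 q of at least 5 and 7.37% with equal numbers of regions, where the share with H3K27Ac was 86.5%. The share with H3K27Ac exceeded the share without under each of the 4 alternatives.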
